A study of Mus musculus with 4 samples.

Results

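B cell and plasma cell genes were examined on the 4 arrays of a mouse asthma study: 33 genes, read by 45 probes, of 27746 named genes on the array. A probe belonged to the set when the gene name in the scanner files was one of the 33, and the older name Faim3 was accepted for Fcmr. All 33 genes were found. The study measured bronchial epithelial cells, the lining cells of the airways, isolated from lungs of wild-type mice (Pla2g3+/+) and of mice labelled Pla2g3-/- for the loss of Pla2g3, whose protein (group III phospholipase A2) is secreted and frees fatty acids from membrane phospholipids. Each genotype had a control group and an antigen-challenged group. Per the labels, mice received 10 µg of ovalbumin with 1.3 mg of alum by injection on days 0 and 14 and breathed 1% ovalbumin for 30 min each on days 26, 27 and 28. The lungs were collected 3 h after challenge. The treatment of the control mice, the strain, the age, and how the deletion was made are not given in the sources used here. Each group was a pool of RNA from 4 samples read on 1 single-colour array. A difference between 2 arrays therefore comes without replicates and is given without a p-value.

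B cells recognise antigen through a surface receptor made of an immunoglobulin and the signalling pair CD79A and CD79B, and the kinases and adaptors below that receptor pass the signal on. Complement receptor 2 and CD40 raise the response, CD22, Siglec-G and CD72 hold it back, and BAFF, read by the receptor encoded by Tnfrsf13c, keeps mature B cells alive. Activated B cells can become plasma cells, in which Irf4 and Prdm1 switch off the B cell programme and antibody secretion is turned up. In the lung, B cells sit mostly in the tissue around airways and vessels and in lymphoid aggregates. They are not epithelial cells. Some of the 33 are also known from other cell types, and 19 were listed as having few other sources in lung. In pooled bulk RNA, fewer cells of a type and less RNA per cell cannot be told apart.

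The main pattern was a high level on the wild-type control array and a lower, nearly equal level on the other 3. Of the members with that pattern, described below, 5 are shown by the 200 bases before their start site, because their promoters share a short sequence match. The sequences are from RefSeq, build GRCm38.p6, written 5′ to 3′ on the strand of the gene, and the capitals mark the E-box letters CAGGTG, or CACCTG where the match lies on the other strand. E-boxes are the sites read by helix-loop-helix factors, among them the E proteins of the B cell programme. The intervals and strands are chr1:170927584-170927783 on the minus strand for Fcrla, chr1:195176720-195176919 minus for Cr2, chr15:82224381-82224580 minus for Tnfrsf13c, chr3:136326067-136326266 minus for Bank1 and chr7:24897297-24897496 plus for Cd79a.
Fcrla: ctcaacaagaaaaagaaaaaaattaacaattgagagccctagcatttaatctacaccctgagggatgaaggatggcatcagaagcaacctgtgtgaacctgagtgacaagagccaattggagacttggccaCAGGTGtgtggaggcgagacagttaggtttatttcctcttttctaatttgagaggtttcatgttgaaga
Cr2: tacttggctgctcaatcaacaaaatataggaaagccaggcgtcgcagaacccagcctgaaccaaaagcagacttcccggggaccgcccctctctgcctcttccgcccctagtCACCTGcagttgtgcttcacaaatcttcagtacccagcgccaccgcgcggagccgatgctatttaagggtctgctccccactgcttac
Tnfrsf13c: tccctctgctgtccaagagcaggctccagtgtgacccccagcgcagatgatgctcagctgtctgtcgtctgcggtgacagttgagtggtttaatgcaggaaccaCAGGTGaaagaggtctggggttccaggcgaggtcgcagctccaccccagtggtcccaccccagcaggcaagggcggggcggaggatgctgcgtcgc
Bank1: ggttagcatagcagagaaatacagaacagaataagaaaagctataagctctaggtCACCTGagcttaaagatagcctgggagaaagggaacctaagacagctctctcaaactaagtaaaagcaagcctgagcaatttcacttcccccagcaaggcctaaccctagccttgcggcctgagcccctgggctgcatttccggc
Cd79a: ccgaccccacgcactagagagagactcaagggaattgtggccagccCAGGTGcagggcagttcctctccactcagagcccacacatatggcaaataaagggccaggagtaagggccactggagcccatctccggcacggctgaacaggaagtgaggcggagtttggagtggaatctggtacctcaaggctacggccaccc

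The matches began 69, 88, 96, 145 and 154 bases before the start in Fcrla, Cr2, Tnfrsf13c, Bank1 and Cd79a. Over the full RefSeq promoter window, from 250 bases before to 50 after the start and on both strands, CAGGTG was found in 12 of the 27 members that have an entry, against 22.6% of 27025 genes and 20.2% of 32851 promoters. Among the 10 members with the pattern, 7 had an entry and 6 of those held the letters, the sixth being Fcmr, which is not printed above. Fcrl1 was the entry without it. The octamer ATGCAAAT was in 2 of 27 (Blnk and Vpreb3) and in 1.97% of genes (1.74% of promoters). The PU.1 letters GAGGAAGT were in 3 of 27 (Cd37, Cd72 and Fcrl1) and in 3.69% of genes (3.2% of promoters), TCCCNNGGG for EBF in 1 of 27 (Cd22) and in 7.48% (6.56%), and the interferon-type core GAAANNGAA in 4 of 27 and in 9.76% (8.56%). Among the 7 entries of members with the pattern, the octamer and the EBF letters were each in 0. The PU.1 letters were in 1 of these 7 and the interferon-type core in 2. A match is a description of letters, and no binding was measured here.

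All values below are log2 of the scanner's processed signal minus the 75th percentile of the same array, so they compare 1 probe between arrays and never 1 gene with another. Arrays are given in the order wild-type control, labelled Pla2g3-/- control, challenged wild type, and challenged cells labelled Pla2g3-/-. Each gene is represented by its brighter probe. The arrays were alike in quality: 78.7% to 81.5% of probes were well above background, no spot was saturated, and the array's 75th percentile was 1808 to 1986 intensity units. Probes printed 10 times varied by a median SD of 0.07 between spots, and for the members the median scanner error of a difference was 0.20. Both figures describe the array and leave out the spread between mice. The markers of the labelled cell type were present: 12 of 12 bronchial epithelial genes were above background on each array, with list medians of 5.82, 5.71, 5.90 and 5.66, and 0 of them differed 2-fold in any comparison. The targeted gene went against its label, since Pla2g3 read -3.05, 0.14, -2.83 and 1.07 by its brighter probe, higher on both arrays labelled Pla2g3-/-. Whether these probes lie in the deleted part was not tested, and the groups are named by their labels throughout.

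On every array, 31 of the 33 genes were above background. The wild-type control array was the highest of the 4 in 23 of these 31, against 29.6% of the 21574 genes measured on all 4. It stood at least 2-fold above each of the other 3 arrays in 10 of 31, or 32.3% of the members, against 0.148% of all genes. Among those 21574 genes 32 did so, and the 10 members made up 31.2% of the 32. The 10 were Tnfrsf13c, Fcmr, Fcrl1, Bank1, Cd79a, Cxcr5, Ms4a1, Cr2, Fcrla and Cd79b, and in them the other 3 arrays lay within 0.14 to 0.69 of each other. Fcer2a and Ebf1 came just short, with gaps to the next array of 1.00 (under 1 before rounding) and 0.97. All 10 belonged to the 19 genes with few other sources in lung, of which 18 were measured on every array, 17 were highest on the wild-type control array, and the median gap was 1.03. Of the 13 measured genes that are also known in other cell types, 6 were highest there, 0 stood 2-fold above each other array, and the median gap was -0.07. Both groups were drawn up with earlier results of these data known, so this contrast is not separate evidence.

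**Figure D1:**
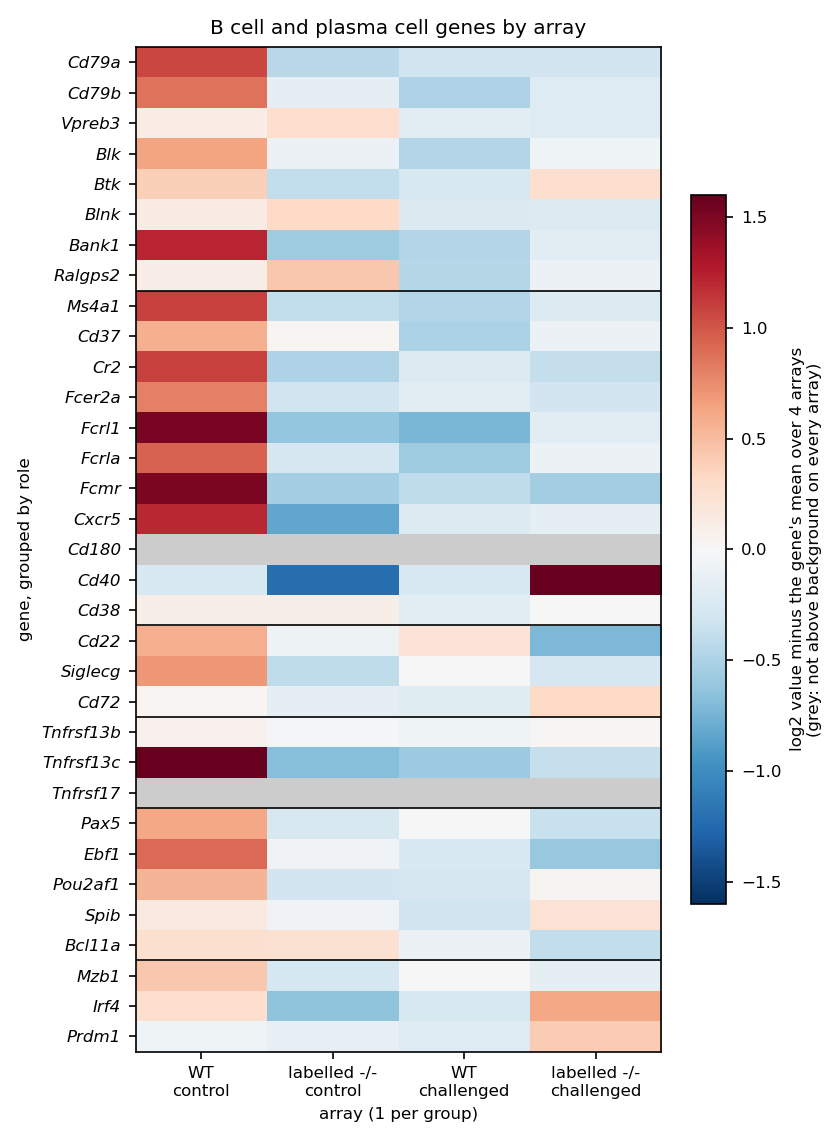
Heat map of the members in rows, grouped by role and separated by black lines, and the 4 arrays in columns (1 array per group). Colour is the log2 value minus the mean of that gene over the 4 arrays, red above and blue below, with genes not above background on every array in grey. The wild-type control column is red in most rows of the surface receptors and of the receptor signalling genes, Vpreb3 and Blnk are nearly flat, and Cd40 is reddest on the challenged array labelled Pla2g3-/-.

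The antigen receptor and its signalling chain followed the pattern in part. Cd79b, a partner in the signalling pair, gave 1.31, 0.28, -0.05 and 0.23. Cd79a, its partner, gave -0.80, -2.31, -2.19 and -2.17. Both were high on the wild-type control array alone, and the other 3 arrays of Cd79a lay within 0.14. Bank1, a scaffold that ties receptor kinases to calcium release, gave -2.28, -4.07, -3.96 and -3.68. Blk, a Src-family kinase of B cells, gave -5.24, -5.96, -6.33 and -5.93. Btk, the kinase whose loss stops B cell development and which myeloid cells also make, gave -2.21, -2.98, -2.85 and -2.32, so the challenged array labelled Pla2g3-/- came within 0.11 of the wild-type control array.

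The remaining signalling members did not follow it. Vpreb3, known from the precursor receptor of immature B cells, gave 4.69, 4.84, 4.40 and 4.37, with raw intensities of 51420, 52603, 38248 and 41019. Blnk, the adaptor between the receptor and its lipase, gave 3.22, 3.41, 2.86 and 2.87. Ralgps2, an exchange factor for Ral GTPases, gave -2.27, -1.95, -2.83 and -2.47. In all 3 genes the control array labelled Pla2g3-/- was the highest, and both challenged arrays were lower than their own controls. The challenge differences of the 3 ran from -0.56 to -0.29. Ralgps2 was printed 10 times and has a scanner error of 0.06.

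Surface receptors gave 6 of the 10 genes with the pattern. Fcmr, the Fc receptor for IgM, gave 0.36, -1.69, -1.55 and -1.71, with intensities of 2555, 569, 616 and 605. Fcrl1, an Fc receptor-like molecule of B cells, gave -4.56, -6.69, -6.81 and -6.24, and its spots were dim, with 84.3 units at most and a scanner error up to 0.35. Ms4a1, which encodes the B cell surface protein CD20, gave 0.50, -0.98, -1.06 and -0.81, with intensities of 2812, 929, 869 and 1125. On each of these the other 3 arrays were close together and the wild-type control array was apart from them.

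Cr2, the complement receptor of B cells and follicular dendritic cells, gave -1.27, -2.85, -2.58 and -2.74. Fcrla, an Fc receptor-like protein kept inside B cells, gave -2.08, -3.30, -3.60 and -3.12. Fcer2a, the low-affinity IgE receptor CD23, gave -2.81, -3.93, -3.80 and -3.92. In these 3 too the wild-type control array was the highest, and the others lay within 0.49 of each other. Cxcr5, the receptor that draws B cells into follicles, gave -1.74, -3.78, -3.16 and -3.09 and was lowest on the labelled Pla2g3-/- control array. Cd37, a tetraspanin of many leukocytes, gave -0.76, -1.31, -1.84 and -1.43. Cd38, an NAD-consuming enzyme of many cell types, gave -1.26, -1.27, -1.54 and -1.36 and was nearly flat.

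Cd40 and Cd180 went another way. Cd40, the receptor for T cell help, also made by macrophages, dendritic cells and activated epithelium, gave -3.86, -4.82, -3.86 and -1.90, with intensities of 137, 64.8, 125 and 532. It was high on the challenged array labelled Pla2g3-/- alone. Cd180, a Toll-like receptor relative of B cells and myeloid cells, was not well above background on the wild-type control array. It gave -6.88, -5.66 and -5.61 on the other 3, so both challenged arrays were above the measurable control array. Macrophage genes, a list of 8, were highest on the challenged array labelled Pla2g3-/- in 8 of 8, with a median difference of 0.93 from the matching control. Their part in the Cd40 value was not tested.

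Among inhibitory receptors, Cd22, the sialic acid-binding brake of the B cell receptor, gave -1.35, -2.01, -1.72 and -2.65, highest on the wild-type control array and lowest on the challenged array labelled Pla2g3-/-. Siglecg, a second sialic acid-binding brake, gave -3.24, -4.34, -3.94 and -4.19. Cd72, an inhibitory coreceptor of B cells, gave -0.92, -1.09, -1.14 and -0.63 and was highest on the challenged array labelled Pla2g3-/-. Of the receptors for BAFF and APRIL, Tnfrsf13c (BAFF receptor) gave -1.78, -4.11, -4.01 and -3.80, with intensities of 580, 106, 112 and 142, the widest gap of all members at 2.03. Tnfrsf13b (TACI), which binds both ligands, gave -1.72, -1.81, -1.86 and -1.77 and stayed within a range smaller than the scanner error. Tnfrsf17 (BCMA), the receptor of plasma cells, was above background on the control array labelled Pla2g3-/- alone, at -7.26.

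Of 5 transcription factors of the B cell programme, 4 were highest on the wild-type control array, against 29.6% of all genes measured on every array. None of the 5 stood 2-fold above each other array. Ebf1, which also marks stromal and fat precursor cells, gave -3.43, -4.40, -4.58 and -4.94. Pax5, the factor that commits cells to the B lineage, gave -5.89, -6.77, -6.51 and -6.86, at only 33.4, 16.8, 19.8 and 17.0 units, and its other probe was not well above background on any array. Pou2af1, the octamer coactivator, gave -0.94, -1.80, -1.76 and -1.45. In these 3 genes the wild-type control array was above each other array. Bcl11a, a zinc finger factor of early lymphoid and nerve cells, gave 0.29, 0.28, -0.05 and -0.36 and Spib, a PU.1 relative also of plasmacytoid dendritic cells and M cells, gave -0.04, -0.25, -0.52 and 0.03, so neither singled out that array.

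The plasma cell members were mixed. Mzb1, a chaperone of antibody assembly, gave -1.25, -1.96, -1.68 and -1.82. Irf4 gave -4.35, -5.26, -4.88 and -4.00, and Prdm1, which encodes Blimp-1, gave -4.60, -4.66, -4.73 and -4.12. Mzb1 had its peak on the wild-type control array and was printed 10 times, with a scanner error of 0.07. Irf4 and Prdm1, which T cells and myeloid cells also make, were highest on the challenged array labelled Pla2g3-/-.

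In wild-type cells the challenge comparison asked how antigen alters the preparation. Of 32 members with a value, 13 were at least 2-fold lower on the challenged array, against 1.7% of 23353 genes, and 1 was at least 2-fold higher, against 1.79%. The sign was negative in 31 of 32, against 12684 of 23353 genes, and the median difference was -0.67, beside -0.03 for all genes. Cd40, at -0.00, was counted as negative, and its sign changed between processing settings. T cell genes were lower in this comparison too, with 11 of 12 negative, 3 of 12 at least 2-fold lower and a median of -0.64, and their part in the members' values was not tested. Surface receptors had 7 of 11 at least 2-fold lower and a median of -1.31, receptor signalling genes 4 of 8 and -0.86. With normexp background correction 9 members were at 2-fold in place of 14. The largest negative differences were those of Fcrl1 (-2.25, or 4.77-fold lower), Tnfrsf13c (-2.23, 4.70-fold lower), Fcmr (-1.92) and Bank1 (-1.67). With normexp the dim Fcrl1 fell below 2-fold, at -0.73, while Tnfrsf13c, Fcmr and Bank1 gave -1.69, -1.78 and -1.36. Inhibitory receptors and plasma cell genes had 0 of 3 each at 2-fold, with medians of -0.37 and -0.43. Cd180 was the higher one, at least 4.06-fold, a bound because the control array was not above background. Its spots were dim, at 2.7 units on the control and 35.8 on the challenged array, with a scanner error of 1.45. With normexp its difference was 0.60, below 2-fold.

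In cells labelled Pla2g3-/- the same comparison gave 0 of 33 at least 2-fold lower, against 3.46% of 23025 genes, and 3 at least 2-fold higher, against 3.88%. The median was 0.13, beside -0.06 for all genes. With normexp background correction 1 member was at 2-fold. The 3 were Cd40 (2.93, or 7.61-fold higher), Cd180 (1.28) and Irf4 (1.26). With normexp they gave 2.16, 0.26 and 0.66, and the spots of Cd180 were dim, at 15.5 and 40.6 units. Ms4a1, Cd79a and Fcmr, all lower in wild type, differed here by 0.17, 0.14 and -0.02, within the scanner error of 0.20. The plasma cell members were positive in 3 of 3, against 9755 of 23025 genes, with a median of 0.54. The difference between the 2 genotypes was not tested, since each effect rests on 1 array per group.

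**Figure D2:**
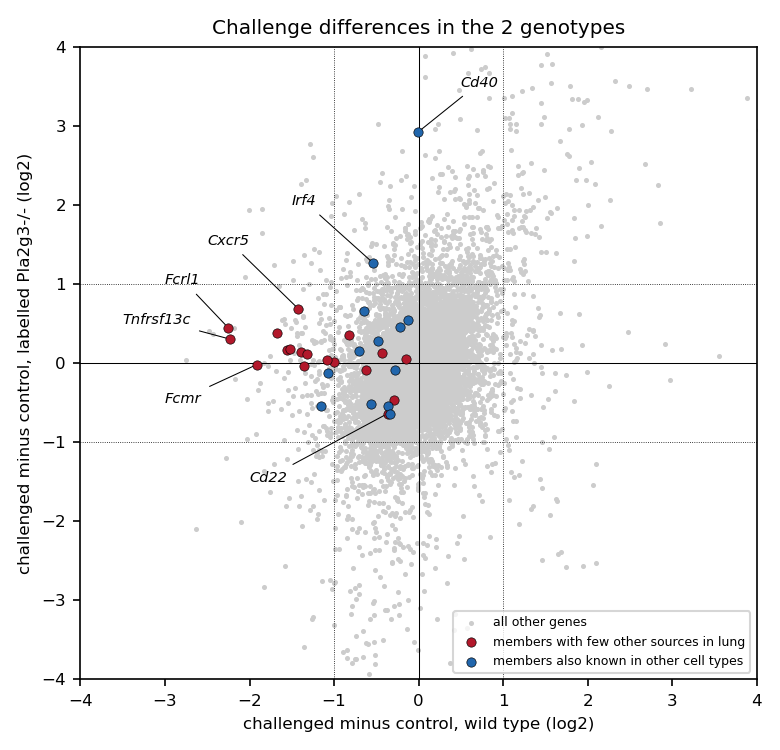
Scatter plot of the challenge difference (challenged minus control, log2) in wild type on the horizontal axis and in cells labelled Pla2g3-/- on the vertical axis, for the 31 members above background on all 4 arrays and the other genes so measured (21574 genes in all, of which 33 lie outside the axes). Dotted lines mark a 2-fold difference, red points are members with few other sources in lung, and blue points are members also known in other cell types. Red points spread to the left as far as -2.25 while lying close to 0 on the vertical axis, and Cd40 lies at 0 on the horizontal axis and 2.93 on the vertical.

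Without challenge, the array labelled Pla2g3-/- was at least 2-fold below wild type for 12 of 33 members, against 1.8% of 23221 genes, and at least 2-fold above for 0, against 3.25%. The median was -0.86, beside -0.03 for all genes. Tnfrsf13c (-2.33, 5.03-fold lower), Fcrl1 (-2.13), Fcmr (-2.05) and Cxcr5 (-2.04) had the largest differences. With normexp Fcrl1 gave -0.69, below 2-fold. This comparison and the challenge comparison in wild type share the wild-type control array, so their lists of lower members are not separate evidence. With the other control array in its place, challenged wild-type cells had 1 member at 2-fold and a median of -0.05.

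Between the 2 challenged arrays, 0 of 32 members were at least 2-fold lower in cells labelled Pla2g3-/-, against 2.46% of 23134 genes, and 1 was at least 2-fold higher, against 3.87%. That gene was Cd40 (1.96, 3.90-fold higher). The median was 0.19, and 0.06 with normexp, beside -0.05 for all genes. Cd79a (0.03), Cxcr5 (0.07), Cr2 (-0.16) and Fcmr (-0.16) differed by less than their scanner errors of 0.20 to 0.21. Cd22 was lower by a larger step (-0.93) and Irf4 higher (0.88). The dimmer Cd22 probe gave a smaller step of -0.29.

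A limma fit of genotype and challenge as additive effects over all 4 arrays, with 1 residual degree of freedom, was the only test across arrays. Of 32 members tested among 22930 genes, limma called 0 for challenge and 0 for genotype after Benjamini-Hochberg adjustment, and 7 and 3 had an unadjusted p under 0.05. The lowest adjusted p among members in limma was 0.256 for challenge, in Blnk, and 0.221 for genotype, in Cd22. Over all genes limma called 1 for challenge and 0 for genotype, with 3380 and 2697 at an unadjusted p under 0.05. A level that is high on 1 array of 4 is split in that fit between both effects and the residual: Fcmr had fitted effects of -0.97 for challenge and -1.10 for genotype.

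Probes of the same gene could be compared in 11 genes that have 2 probes above background on all arrays. Both probes had the wild-type control array highest in 8 of the 11 and neither in 1. For the challenge difference in wild type both probes had the same sign in 11 of 11, and the counts for the challenge difference under the Pla2g3-/- label and the genotype differences without and with challenge were 9, 10 and 9. For Bank1 the brighter probe stood 1.62 above the mean of the other 3 arrays and the dimmer one 1.48, for Cr2 1.46 and 1.59, and for Tnfrsf13c 2.20 and 1.07. For Cd22 the values were 0.77 and 0.17. The genotype difference of Cd22 without challenge was -0.66 by the brighter probe and -0.01 by the dimmer one. By the gap to the highest other array, the dimmer probes of Tnfrsf13c (0.81) and Cd79a (0.96) did not reach 2-fold, so the place of both genes among the 10, and the widest gap of Tnfrsf13c, rest on the brighter probe. The Tnfrsf13c probes lie at chr15:82052203-82052262 and chr15:82054616-82054675 on the minus strand of mm9, the build of the file headers.

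**Figure D3:**
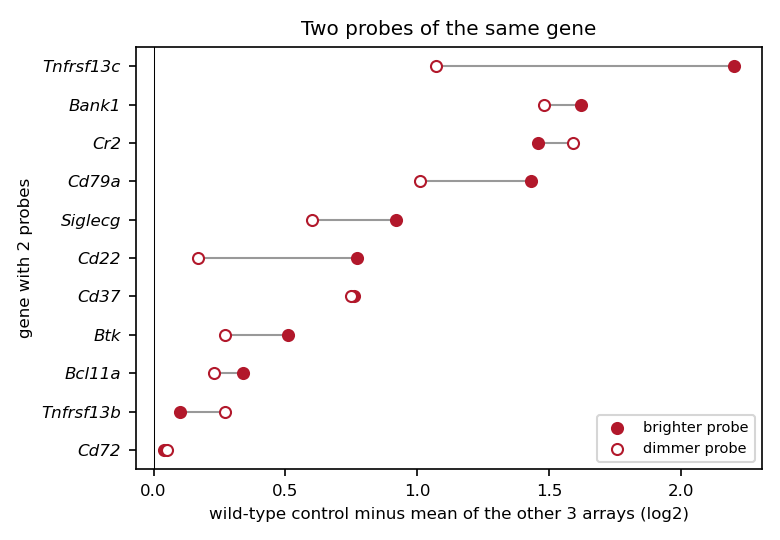
Dot plot of 11 genes with 2 probes, showing the wild-type control array minus the mean of the other 3 arrays (log2) for the brighter probe (filled) and the dimmer probe (open), joined by a line. All points lie above 0, Cd37 and Cd72 points nearly coincide, and the widest separations are those of Tnfrsf13c (2.20 and 1.07) and Cd22 (0.77 and 0.17).

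The 2 Cd79a probes are printed because the brighter one is placed oddly. Of the 45 probes, the file headers place 41, and 40 of these lie on the RefSeq chromosome of their gene. The exception is the brighter Cd79a probe, placed on chromosome 12 while RefSeq has the gene on 7. The dimmer one is unplaced. Whether the brighter probe reads Cd79a or a related sequence elsewhere was not tested, and the Cd79a values above are those of this probe. The first 30 of the 60 bases of each, brighter first, all in lower case because no part is marked, are as deposited in the files.
Cd79a brighter probe: cctcctcccagatctgtcatggccacttaa
Cd79a dimmer probe: tagaaaacaacatattaaaacgctcctgtg
Their intensities were 1144, 371, 395 and 441 for the brighter and 89.0, 42.2, 39.4 and 43.6 for the dimmer. Both were high on the wild-type control array alone, by 1.43 and 1.01 over the mean of the other 3.

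Genes of the same pathway outside the 33 were counted the same way. Of 20 other genes of the B cell receptor pathway, 8 were highest on the wild-type control array, against 29.6% of the 21574 genes. Another 7 were highest on the challenged array labelled Pla2g3-/-, and the median gap between the wild-type control array and the highest other array was -0.05. Rasgrp3, which activates Ras below the receptor, gave -3.27, -4.03, -4.33 and -4.09, and Dok3, an adaptor that dampens signalling, gave -1.85, -2.77, -2.52 and -2.25. Vav1, an exchange factor of all blood cells, was higher on both arrays labelled Pla2g3-/- (0.32, 1.45, 0.29 and 1.21). Most genes of this list serve other leukocytes as well.

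Genes of antibody secretion were counted next. Of 12 plasma cell secretory genes outside the members, 0 were highest on the wild-type control array, against 29.6% of all genes measured on every array. Their median challenge difference was 0.33 for wild type and 0.42 under the Pla2g3-/- label. Jchain, which joins antibody units into polymers, gave -1.68, -0.60, -2.15 and -0.12, high on both arrays labelled Pla2g3-/-. Eaf2, of the same list, went the other way with 4.40, 2.71, 5.05 and 3.21, low on both arrays with that label. The median genotype difference of the list was -0.00 without challenge and 0.12 with challenge. Xbp1, the factor that expands the secretory apparatus in plasma cells and epithelium alike, gave 4.90, 4.86, 5.72 and 5.99. Creld2, a chaperone of the endoplasmic reticulum, gave 3.73, 3.76, 4.49 and 4.62, and both were higher after challenge in each genotype. Of 9 immunoglobulin genes on the array, 6 were measured above background on every array. The wild-type control array was the highest in 4 of these 6, beside the same 29.6%, and stood 2-fold above each other array in 0. Iglv1, a light chain segment, gave -1.15, -1.31, -1.92 and -1.64, and Igh-VJ558, a heavy chain segment, gave -4.96, -3.16, -5.97 and -4.65.

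Germinal centre and homing genes gave a further view. Gcsam, an adaptor of germinal centre B cells, gave -4.11, -4.65, -5.04 and -4.73, with its highest value on the wild-type control array by less than 2-fold. Ccr7, which leads B and T cells to lymph nodes, gave -0.55, -1.55, -1.79 and -1.29. Glycam1, a ligand for L-selectin made by lymph node vessels, was at background on the labelled Pla2g3-/- control array and gave -4.63, -7.14 and -5.49 on the wild-type control, challenged wild-type and challenged labelled Pla2g3-/- arrays. It too peaked on the wild-type control array. That array was highest in 2 of 10 lymph node and homing genes measured on every array, against 29.6% of all genes. Another 6 of these 10 were highest on the challenged array labelled Pla2g3-/-, among them Tnfsf11 (-6.91, -5.82, -7.09 and -5.12). Of 7 germinal centre genes so measured, 3 were highest on the wild-type control array. Rgs13 (-1.33, -0.83, -1.32 and -0.43) and Nuggc (-6.23, -5.54, -6.75 and -5.89) were not. The part of lymph node tissue in the members' values was not tested. Cxcl13, the ligand of Cxcr5, gave -0.68, -1.61, -1.54 and -0.31, so the challenged array labelled Pla2g3-/- was high for the ligand and not for the receptor. Among signals to B cells, Tnfsf13b, which encodes BAFF, gave -3.66, -3.29, -3.38 and -2.59, and was highest where its receptor gene Tnfrsf13c was low. Il6 was at background on the unchallenged array labelled Pla2g3-/-, with -6.41, -5.88 and -2.87 on the other 3.

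Markers of other cells moved with arrays too. T cell genes had medians of -1.88, 1.03, -2.71 and -1.78 and peaked on the labelled Pla2g3-/- control array in 11 of 12. Thymocyte genes, which mark developing T cells of the thymus, had medians of -4.94, -1.20, -5.39 and -3.72 and were highest on that array in 8 of 8. Pth, parathyroid hormone, gave -0.18, -2.29, -5.30 and -3.75, with its highest value on the wild-type control array. The other parathyroid genes listed did not follow it: Casr gave -6.35, -5.92, -6.32 and -5.74, and Gcm2 gave -5.14, -5.39, -5.15 and -5.62. The T cell genes thus had another high array than the B cell genes, although both lists were lower on the challenged than on the control wild-type array. The part of other tissue in the preparations was not tested.

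**Figure D4:**
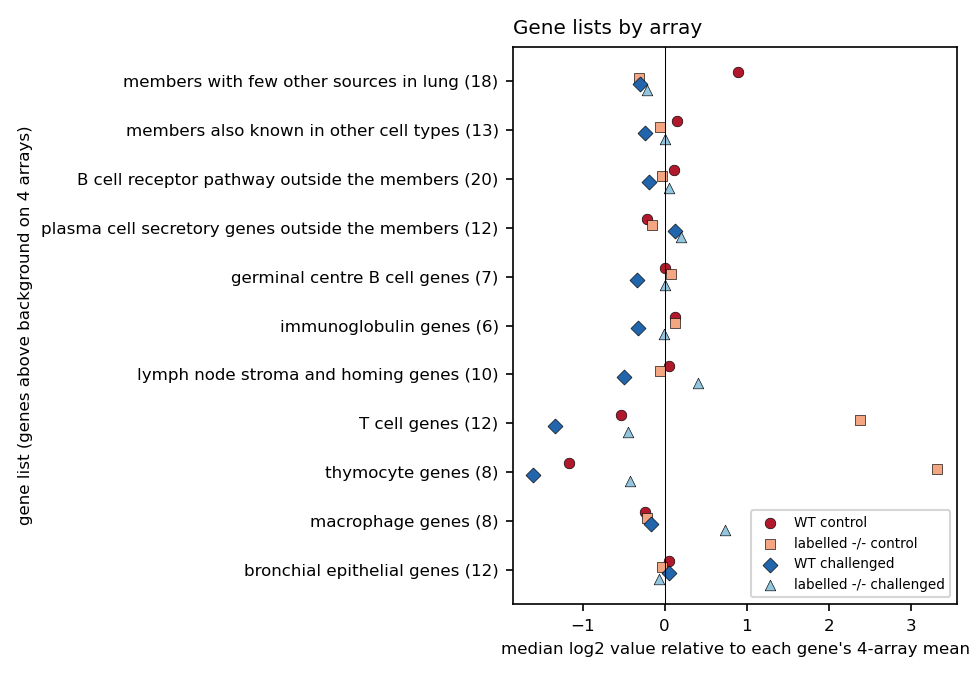
Dot plot of gene lists in rows, each with the number of genes above background on 4 arrays, and the median over the list of the log2 value relative to each gene's mean over the 4 arrays on the horizontal axis. Symbols stand for the 4 arrays. Members with few other sources in lung are apart on the wild-type control array alone (0.90, with the others from -0.31 to -0.21), T cell and thymocyte genes are apart on the labelled -/- control array (2.38 and 3.32), and bronchial epithelial genes stay close to 0.

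Genes in no list were ranked by the gap between the wild-type control array and the highest of the other 3 arrays, over 4 arrays, and the 12 with the widest gaps are named. The ranking kept genes whose wild-type control value was not below the 25th percentile of the probes detected there, and left out clone and transcript names, some of which had gaps as wide. Trim69, a ubiquitin ligase of the tripartite motif family, had a gap of 2.37, the heat shock gene Hspa1a 1.40, Pdk4, a brake on glucose oxidation, 1.15, and Ccn2 and Timp3, genes of matrix turnover, 1.08 and 1.03. H2-Eb2, a class II gene, had a gap of 1.09, at -4.18, -5.31, -5.43 and -5.27. The others of the 12 were Olfr982 (2.75, not well above background on both arrays labelled Pla2g3-/-), Unc93a2 (1.20), Hoxc5 (1.18), Zic2 (1.16, likewise), Onecut2 (1.14) and Zdhhc22 (1.03).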

How the data were processed

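The deposited scanner files hold 1-colour intensity of each spot, read with Agilent Feature Extraction 11.5.1.1 according to the submitters' processing notes, with background subtraction and detrending by the authors per the file headers. The 4 arrays share 1 slide, and the effect of position cannot be told apart from that of the group. The deposited series matrix equals the processed intensity divided by each array's 75th percentile. Here, log2 of the processed signal minus that percentile was taken, outlier spots were dropped, spots of a probe were averaged, and each gene took its brighter probe. Symbols came from RefSeq (GRCm38.p6) for 28330 of 39429 probes. A gene above background on 1 of 2 arrays got a bound. Single differences of at least 2-fold were counted without a test. limma 3.58.1 in R 4.3.3 fitted the additive model with a mean trend and adjusted p at 0.05, and was tested on simulated data. Members and lists were chosen with earlier results of these data known. All members are named, with up to 4 genes per other list and 12 in no list, by the difference of the wild-type control array. Alternatives were normexp, quantile, mean of probes, detected genes only, median centring, other folds and the series matrix.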

Additional observations from a re-analysis of the deposited data

Results flagged for a closer look

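Of 32 members with both values, 20 had a negative challenge difference in wild type and a positive one in cells labelled Pla2g3-/-, against 16.1% of 22609 genes. In 16 of them both differences were larger than 0.09, the median SD of a difference between repeated spots, against 7.32% of genes. That SD comes from probes printed 10 times, and only 2 of the 45 member probes were printed more than once. The median scanner error of a member's difference was larger, at 0.20. Cd40, Fcer2a, Blk and Tnfrsf13b had a side nearer to 0 than 0.09. With 1 array per group the difference between genotypes was not tested. For the 16, the gap between the 2 challenge differences (log2, labelled Pla2g3-/- minus wild type) was 2.70 for Fcrl1, 2.53 for Tnfrsf13c, 2.11 for Cxcr5, 2.06 for Bank1, 1.80 for Irf4, 1.73 for Ms4a1, 1.71 for Fcrla and 1.53 for Cd79a. It was 1.42 for Cr2, 1.30 for Btk, 1.17 for Pou2af1, 0.86 for Siglecg, 0.76 for Spib, 0.69 for Cd72, 0.66 for Prdm1 and 0.56 for Mzb1. In Cr2, Cd79a, Ms4a1, Fcrla, Siglecg and Mzb1 the positive side was 0.11, 0.14, 0.17, 0.18, 0.15 and 0.13. All of these except that of Mzb1 lay within their scanner errors of 0.20 to 0.21, so their sign is open. The same holds for the negative side of Prdm1 (-0.12, with an error of 0.21). The gaps of Irf4 and Cxcr5 also hold a positive side of 1.26 and 0.69.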

How the results depend on the processing

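No paired analysis was possible because each group has 1 array. Over 74 alternative values, 0 reversed, 57 stayed close and 17 moved; the cause was not tested unless the alternative itself sets it. For challenge in wild type, 14 members at 2-fold became 9 with normexp, 5 at 3-fold and 1 with the other control array, and the median of -0.67 became -0.49 and -0.05 with normexp and that array. For challenge in cells labelled Pla2g3-/-, 3 became 1 with normexp, 7 at 1.5-fold and 1 at 3-fold. For genotype without challenge, 12 became 22 at 1.5-fold and 5 at 3-fold, and the median of -0.86 became -0.58 with normexp and -0.72 with the mean of probes. For genotype with challenge, 1 became 4 at 1.5-fold and the median of 0.19 became 0.06 with normexp. limma's calls over all genes were 1 for challenge (0 without the trend, 4 with normexp) and 0 for genotype (9 with normexp). The counts of 10 and 23 members on the wild-type control array, whose alternatives were added after seeing the data, stayed at 8 to 10 and 21 to 23. Signs held under all settings in 31 of 32, 29 of 33, 32 of 33 and 30 of 32 members. Dim probes, such as those of Fcrl1 and Pax5, are limited by their closeness to background.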

Other observations

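Genes of B cell precursors and of plasmacytoid dendritic cells, which share part of the B cell programme, were also measured. Vpreb1, a chain of the precursor receptor, read -2.45, -2.70, -2.55 and -2.95 on the wild-type control, labelled Pla2g3-/- control, challenged wild-type and challenged labelled Pla2g3-/- arrays, a narrow range like that of Vpreb3. Rag1, which cuts antigen receptor genes in both B and T cell precursors, read -4.37, 1.43, -4.95 and -2.51, and Dntt, which adds bases at the joints, read -1.87, 3.72, -1.72 and -0.45. Both were highest on the labelled Pla2g3-/- control array, where the B cell genes were low. Siglech, a surface marker of plasmacytoid dendritic cells, read 5.55, 5.48, 5.50 and 5.26. Il4, a signal for antibody class switching, read -5.86, -6.16, -5.33 and -4.14.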
